A study of Homo sapiens with 12 samples.

Results

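CREBZF and NTMT1 hold introns whose inclusion differed between control cells with and without depletion of UPF1, and their introns and alternative exons are described here in all 4 groups. The genes were chosen by that difference in inclusion level, in thiamet-G (TG) treated siNT/siUPF1 cells against siNT cells, so their values in this comparison are a description and carry no test. All events that the tables assign to the genes were taken, which gave 46 events of 176238 in all. CREBZF had 7 retained intron events and 13 skipped exon events, and NTMT1 had 1 retained intron event and 25 skipped exon events.

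The cells were HEK293A-TOA, a line derived from human embryonic kidney HEK293 cells, and polyadenylated RNA was sequenced. SFSWAP was depleted with 40 nM of a mix of 2 siRNAs, UPF1 with 30 nM of siRNA, and a non-target siRNA (siNT) served as the control. The groups were siSFSWAP/siUPF1 (SFSWAP and UPF1 depleted), siSFSWAP (SFSWAP depleted), siNT/siUPF1 (UPF1 depleted) and siNT (neither), with 3 libraries each. By the labels, cells grew for 5 days after transfection (the study's methods give 1 day less for genes other than SFSWAP in general), and every group, the controls included, received 1 µM TG, an inhibitor of the enzyme that removes O-GlcNAc from proteins, for the last 6 h. The study defines biological replicates as cells passaged at separate times. Permutation p-values rest on the spread between these. Those of the quasi-binomial test rest on a spread between libraries that is shared, in part or in full, across all events.

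UPF1 is the RNA helicase at the centre of nonsense-mediated decay (NMD), the cytoplasmic pathway that degrades mRNAs whose stop codon lies well upstream of an exon junction. Transcripts with a retained or detained intron can meet this pathway once exported, but many stay in the nucleus, where it does not act. SFSWAP is a splicing regulator of the SR-related family. CREBZF is a basic leucine zipper protein related to the CREB/ATF family, and NTMT1 methylates the N-terminal amine of proteins such as RCC1.

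The annotated CREBZF mRNA of the MANE set (chr11:85657990-85665129, minus strand, GRCh38) has 1 exon with a reading frame of 354 codons. The introns in the tables are removed from within that exon, from the last coding base onward. The 213 nt intron (chr11:85663602-85663814) begins at the last coding base, so that its donor overlaps the stop codon. The 1066 nt intron (chr11:85662458-85663523) follows, and after an exon of 69 nt comes the 1791 nt intron (chr11:85660598-85662388). GENCODE lists the 1066 nt intron in 8 CREBZF transcripts (4 of them annotated as NMD targets), the 1791 nt intron in 5 (2 as NMD targets) and the 213 nt intron in 4 (all 4 as NMD targets).

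The NTMT1 intron is of another kind. It is a 149 nt stretch (chr9:129634222-129634370, plus strand) between a donor inside exon 3 and an acceptor past its end, and it is spliced in no GENCODE transcript. Of its 149 nt, 85 are ordinary coding sequence of exon 3 in the MANE mRNA, so its inclusion reads also come from normally spliced NTMT1 mRNA. The 119 nt exon that follows (chr9:129634371-129634489) has no GENCODE entry.

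**Figure D1:**
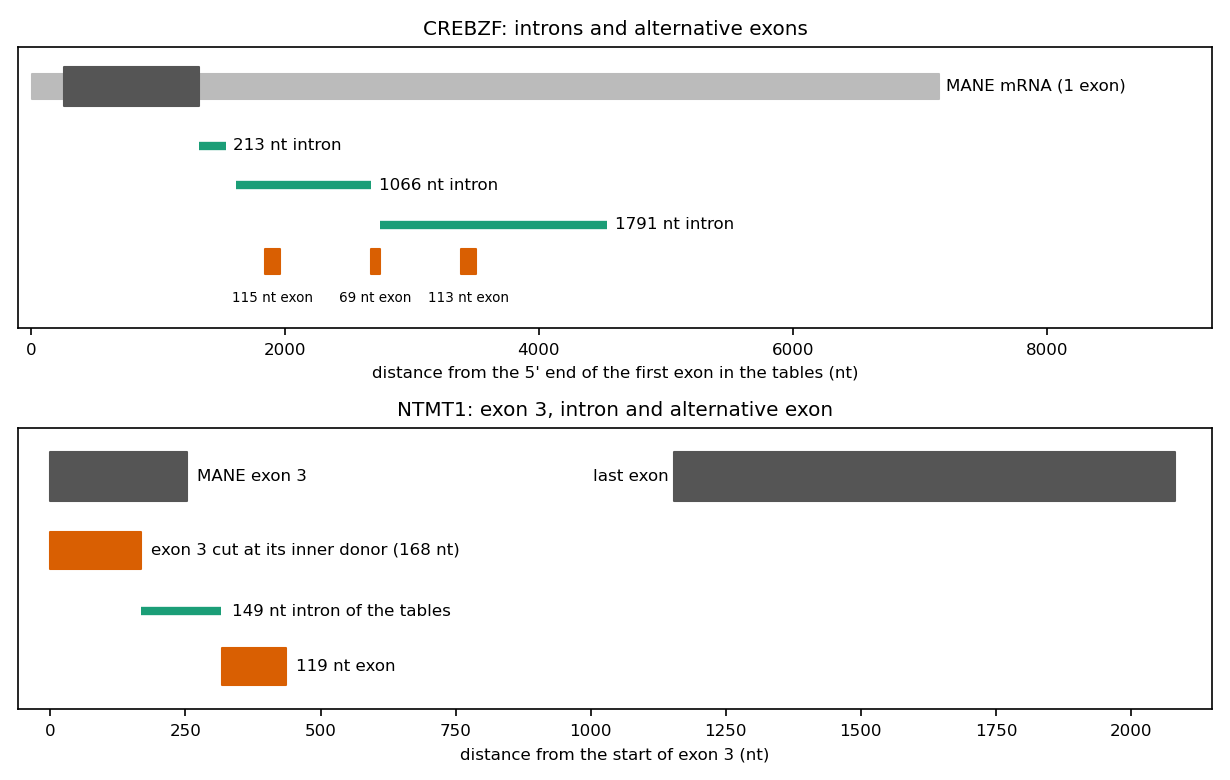
The introns (green), alternative exons (orange) and MANE exons (grey, coding parts and drawn NTMT1 exons dark) are placed by distance in nt, to scale within each gene. The 213, 1066 and 1791 nt introns of CREBZF all lie inside its single MANE exon, and the 149 nt intron of NTMT1 begins inside exon 3.

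The splice sites that define these introns are shown because each inclusion level below is a choice at one of them. They were read from GRCh38 and are given 5′ to 3′ on the transcribed strand, with the first or last 2 bases of the intron in capitals. Donor windows hold 6 exon bases and then 10 intron bases, and acceptor windows hold 20 intron bases and then 6 exon bases.
CREBZF 1066 nt intron donor (chr11:85663514-85663529): aacctgGTaaggatcc
CREBZF 1066 nt intron acceptor (chr11:85662452-85662477): tgtttttctttgtgctaaAGtggata
CREBZF 1791 nt intron donor (chr11:85662379-85662394): taaaagGTagtataag
CREBZF 1791 nt intron acceptor (chr11:85660592-85660617): tctctcttctctttgaacAGcttagc
CREBZF 213 nt intron donor (chr11:85663805-85663820): taaaatGTagggtcaa
CREBZF 213 nt intron acceptor (chr11:85663596-85663621): ctattaaatctctctgacAGtttctt
NTMT1 149 nt intron donor (chr9:129634216-129634231): aagaggGTgaggaact
NTMT1 149 nt intron acceptor (chr9:129634351-129634376): ccactcgcgttccccataAGgtgtca

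The overlap of the 213 nt intron with the CREBZF stop codon is seen in the same bases with the stop codon in capitals.
CREBZF stop codon (chr11:85663802-85663823): tcttaaaatgTAGggtcaagta

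All 8 introns of the genes began with GT and ended with AG. None began with GTAAGT on the transcribed strand, which stood at the start of 9.40% of the 13840 introns in the tables. The donor that follows the 113 nt exon inside the 1791 nt CREBZF intron did carry it.
CREBZF 113 nt exon donor (chr11:85661627-85661642): aaagcaGTaagttcat

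The CREBZF introns were long and poor in G and C for introns of these tables, whose median was 139 nt and 53.1% GC. The 1066 nt intron had 36.0% GC (22.8th percentile), the 1791 nt intron 30.0% (11.1th percentile) and the 213 nt intron 38.5% (26.7th percentile). The NTMT1 intron had 58.4% GC (63.0th percentile) and a length near the median.

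The reading frames were traced on the reference. In CREBZF mRNA that keeps the 213 nt intron and loses the 1066 nt intron, the MANE stop codon lies 287 nt before the new junction. With the 213 nt intron removed as well, the frame reads 358 codons to a TGA that lies 62 nt before it. In NTMT1, exon 3 cut at its inner donor and joined to the last exon gives a stop in the last exon after 145 codons, and with the 119 nt exon between them the stop is also in the last exon, after 198 codons. Read through the intron and the 119 nt exon, the frame ends at a TGA after 174 codons, 73 nt before the last junction.

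Each library held 1812794 to 3030493 reads at retained intron events and 25938092 to 40637076 at skipped exon events. UPF1 had 56.4 to 102 reads per 1000000 skipped exon event reads in siSFSWAP/siUPF1 libraries, against 188 to 223 in siSFSWAP libraries (38.0% of the siSFSWAP mean), and 41.3 to 73.4 in siNT/siUPF1 libraries, against 147 to 209 in siNT libraries (32.9%). SFSWAP stood at 40.4% of siNT in siSFSWAP cells and at 41.1% of siNT/siUPF1 in siSFSWAP/siUPF1 cells. None of these 4 comparisons overlapped (p = 0.1 each, two-sided exact permutation test, n = 3 each, the smallest p the design allows). Groups with and without siUPF1 came from separate tables of the authors' software, so UPF1 depletion and the table cannot be told apart. Between them, only events with the same coordinates in both were compared. Reads per 1000000 were divided by the reads of all events in the library's own table, however, and the tables list different sets of events.

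The values are inclusion levels, the share of an event's reads that keep the intron or exon after each form is divided by its effective length, from 0 (always removed) to 1 (always kept). In pooled cultures, a change in every cell and a change in some of the cells cannot be told apart.

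In the siNT/siUPF1 and siNT cells from which the genes were chosen, the CREBZF 1066 nt intron had a lower level with UPF1 depleted. Its levels were 0.236, 0.238 and 0.266 in siNT/siUPF1 libraries, against 0.554, 0.401 and 0.478 in siNT libraries. The groups were separate, with means of 0.247 ± 0.0165 and 0.478 ± 0.0761 (SD, n = 3 each), a difference of -0.231. In reads, the intron had 954, 1060 and 1201 inclusion reads in siNT/siUPF1 libraries, against 1212, 1405 and 1712 in siNT libraries. The spliced form had 262, 288 and 282 reads in siNT/siUPF1 libraries, against 83, 178 and 159 in siNT libraries. Per 1000000 retained intron event reads, spliced reads averaged 116 ± 3.72 in siNT/siUPF1 and 49.6 ± 15.1 in siNT cells, and intron reads 446 ± 32.6 in siNT/siUPF1 and 517 ± 64.1 in siNT cells.

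The siNT/siUPF1 libraries were thus above every siNT library in spliced reads and below the siNT mean in intron reads. As a share of reads without effective lengths, the difference in level was -0.119. Over all introns, 0.0659% passed an adjusted p of 0.05 in this comparison (2 of 3034), and nothing is read from it for the genes, which this comparison chose. The 213 nt intron, at the CREBZF stop codon, had 0.700, 0.673 and 0.805 in siNT/siUPF1 libraries, against 0.864, 0.868 and 0.842 in siNT libraries. All 3 siNT/siUPF1 values lay below the siNT values, a separation seen for 14.5% of all introns tested here. The 1791 nt intron averaged 0.548 ± 0.116 in siNT/siUPF1 and 0.559 ± 0.0571 in siNT cells (SD, n = 3 each), and its libraries overlapped. The 113 nt exon inside that intron averaged 0.170 ± 0.0298 in siNT/siUPF1 and 0.0945 ± 0.0208 in siNT cells, without overlap.

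The NTMT1 intron stood the other way. Its levels were 1, 1 and 1 in siNT/siUPF1 libraries, against 0.800, 0.793 and 0.868 in siNT libraries. Behind them were 0, 0 and 0 spliced reads in siNT/siUPF1 libraries, beside 305, 370 and 229 inclusion reads, against 31, 23 and 19 spliced reads in siNT libraries, beside 310, 220 and 313 inclusion reads. The siNT/siUPF1 libraries held no spliced read at all, 0 of 904 reads, which allows a share of up to 0.332% from counting error alone.

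With 3 reads over the group taken as the limit that a count of 0 allows, the pooled spliced reads were at least 21.0-fold lower in siNT/siUPF1 libraries. That limit covers counting error and leaves out the spread between libraries. It describes the comparison that chose the gene and is no bound on a difference between groups of cultures. As a share of reads without effective lengths, the difference in level was 0.0809, against 0.180 with them. The 119 nt exon uses the same inner donor and acceptor, so that the spliced reads of the intron are also reads of this exon. It had 0, 2 and 0 inclusion reads in siNT/siUPF1 libraries, against 34, 26 and 19 in siNT libraries. Its mean level was 0.00297 ± 0.00515 in siNT/siUPF1 and 0.0946 ± 0.0233 in siNT cells (SD, n = 3 each). Of all exons tested here, 1.17% passed (332 of 28261) and 14.1% had separate groups. The junction that skips it, from the inner donor to the last exon, had 76, 101 and 85 reads in siNT/siUPF1 libraries, against 137, 92 and 117 in siNT libraries, and these overlapped.

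**Figure D2:**
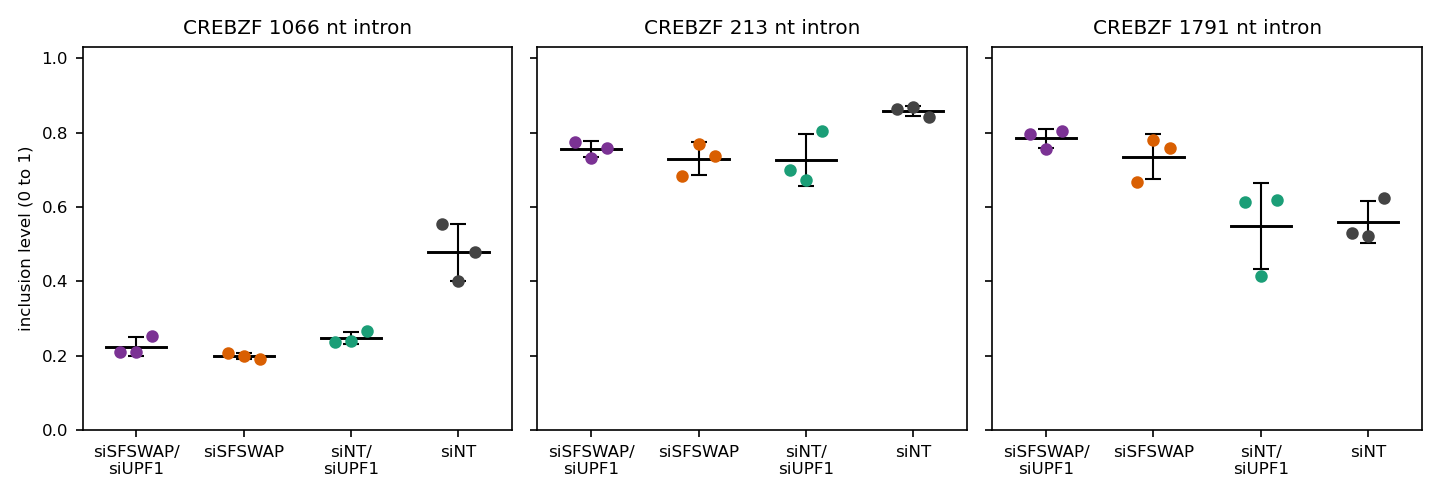
Each dot is the inclusion level (0 to 1) of a CREBZF intron in 1 library, with the mean (bar) and SD (whiskers) of 3 libraries in each of the 4 groups. For the 1066 nt intron the siNT libraries (0.401 to 0.554) stand above the libraries of the other groups (0.190 to 0.266).

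The comparison of siSFSWAP/siUPF1 with siSFSWAP cells sets UPF1-depleted cells against UPF1-intact ones in libraries that had no part in the choice of the genes, again across separate tables. By the quasi-binomial test 0 of the 5 introns of the genes that could be tested passed here, with 0 at an unadjusted p under 0.05 and 0 by limma. The CREBZF 1066 nt intron had levels of 0.209, 0.211 and 0.253 in siSFSWAP/siUPF1 libraries, against 0.207, 0.200 and 0.190 in siSFSWAP libraries. The siSFSWAP/siUPF1 libraries were all higher, by 0.0252 in the mean (0.224 ± 0.0250 in siSFSWAP/siUPF1 and 0.199 ± 0.00885 in siSFSWAP cells, SD, n = 3 each). The log2 odds ratio was 0.23 (95% interval -0.0031 to 0.473), and the quasi-binomial test with Benjamini-Hochberg adjustment gave an adjusted p of 0.997 (p = 0.0528 before adjustment). The sign is opposite to that of the difference in the control background, -0.231.

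The other introns of the genes also missed the threshold in siSFSWAP/siUPF1 against siSFSWAP cells. The 1791 nt intron averaged 0.785 ± 0.0255 in siSFSWAP/siUPF1 and 0.735 ± 0.0599 in siSFSWAP cells, a log2 odds ratio of 0.39 (95% interval -0.23 to 1.00). The 213 nt intron averaged 0.755 ± 0.0215 in siSFSWAP/siUPF1 and 0.730 ± 0.0438 in siSFSWAP cells, a log2 odds ratio of 0.17 (95% interval -0.22 to 0.57). These intervals leave room for changes in either direction. The NTMT1 intron had 1, 0.925 and 0.842 in siSFSWAP/siUPF1 libraries, against 0.793, 1 and 0.838 in siSFSWAP libraries. The libraries overlapped, and the log2 odds ratio was 0.87 (95% interval -0.64 to 2.38). It rested on 0, 5 and 10 spliced reads in siSFSWAP/siUPF1 libraries, against 25, 0 and 14 in siSFSWAP libraries. All of these had an adjusted p of 0.997 in the quasi-binomial test with Benjamini-Hochberg adjustment.

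Across all introns 0.166% passed in this comparison (5 of 3015), and 149 had an unadjusted p under 0.05. limma on log2 odds called 0 introns in the comparison with either pseudocount. The 5 introns that passed lay in EIF3M, HNRNPA1, NAP1L1, PTMS and RPS2, named here after their values were seen. Of the 5 tested introns of CREBZF and NTMT1, 1 had groups that did not overlap, the 1066 nt intron, beside 9.19% of all introns tested. By the same test 0 of the 5 tested exons of the genes passed, with 0 at an unadjusted p under 0.05, beside 0.0816% of all exons (21 of 25748), and 1279 of all exons had an unadjusted p under 0.05. limma called 0 exons, and 9.45% of all exons had groups that did not overlap. The NTMT1 119 nt exon had a log2 odds ratio of -0.40 (95% interval -1.50 to 0.69) and the CREBZF 113 nt exon one of 0.01 (95% interval -0.86 to 0.89). Both intervals use a dispersion of 2.39 that was common to all exons in this comparison. The own dispersions were larger, at 8.63 for the 119 nt exon and 3.16 for the 113 nt exon.

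The difference between the backgrounds, with and without SFSWAP, was not tested, because it contains the contrast by which the genes were chosen.

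The reads of each form were also compared in siSFSWAP/siUPF1 against siSFSWAP cells, in 12 tests. Intron reads of the 1066 nt intron were 419, 457 and 479 per 1000000 retained intron event reads in siSFSWAP/siUPF1 libraries, against 237, 317 and 362 in siSFSWAP libraries. The groups did not overlap (ratio of means 1.48). Before division by the totals, these reads averaged 982 in siSFSWAP/siUPF1 and 887 in siSFSWAP libraries. The ratio thus depends on totals that differ in depth and in the events they cover. Its spliced reads averaged 133 ± 12.6 per 1000000 in siSFSWAP/siUPF1 and 105 ± 27.3 in siSFSWAP cells (SD, n = 3 each), and overlapped. Intron reads of the 1791 nt intron were higher in each siSFSWAP/siUPF1 library, with a ratio of means of 1.61, and so were those of the 213 nt intron, with a ratio of 1.31. The reads that skip the NTMT1 119 nt exon differed the other way, at 2.02 ± 0.160 per 1000000 skipped exon event reads in siSFSWAP/siUPF1 and 2.68 ± 0.166 in siSFSWAP cells, a ratio of 0.756 without overlap. Each of these 4 had p = 0.1 in a two-sided exact permutation test, the smallest that 3 against 3 libraries allows, and an adjusted p of 0.3, which is no call.

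**Figure D3:**
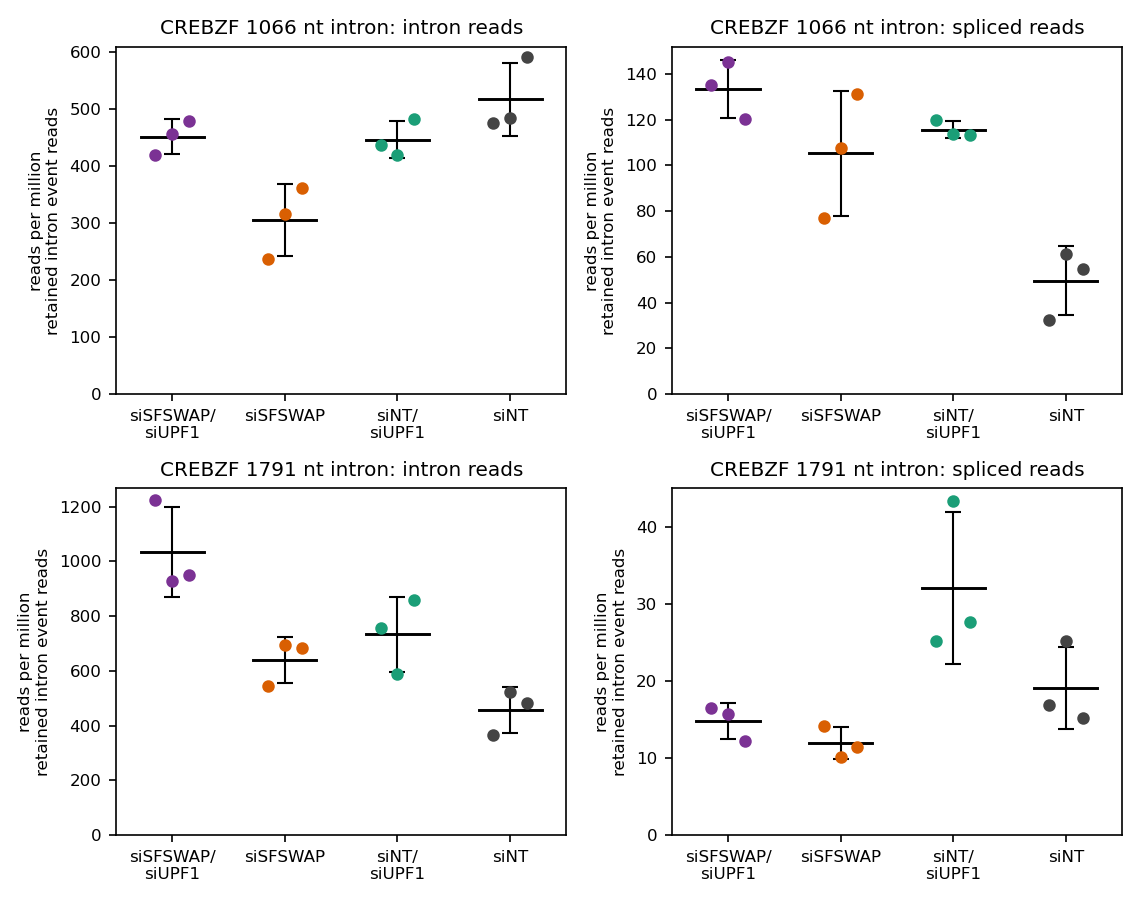
Reads that keep and reads that splice the 1066 and 1791 nt introns of CREBZF are plotted per 1000000 retained intron event reads, with a dot for each library and the mean and SD of 3 libraries for each group. Spliced reads of the 1066 nt intron are lowest in siNT libraries (mean 49.6), and intron reads of the 1791 nt intron are highest in siSFSWAP/siUPF1 libraries (mean 1035).

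Depletion of SFSWAP was next compared in cells with intact UPF1. The siNT libraries of this comparison are those on which the genes were chosen, so values set against them are given without a test for the NTMT1 intron and its 119 nt exon and for the CREBZF introns that stood apart between siNT/siUPF1 and siNT cells (1066 and 213 nt). The same holds for the CREBZF exons inside the 1066 nt intron, which are skipped by its splice junction. The 1066 nt intron had 0.207, 0.200 and 0.190 in siSFSWAP libraries, against 0.554, 0.401 and 0.478 in siNT libraries. The groups did not overlap, as for 24.6% of all introns tested, and the means differed by -0.279. Spliced reads averaged 105 ± 27.3 per 1000000 in siSFSWAP and 49.6 ± 15.1 in siNT cells, and intron reads 305 ± 63.5 in siSFSWAP and 517 ± 64.1 in siNT cells (SD, n = 3 each).

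The 213 nt intron, which overlaps the stop codon, had 0.682, 0.769 and 0.737 in siSFSWAP libraries, against 0.864, 0.868 and 0.842 in siNT libraries. All siSFSWAP libraries were lower, and the means differed by -0.128.

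The 1791 nt intron, whose siNT/siUPF1 and siNT libraries overlapped, was tested. It rose to 0.668, 0.781 and 0.758 in siSFSWAP libraries, against 0.530, 0.522 and 0.625 in siNT libraries. Its groups did not overlap, and the log2 odds ratio was 1.15 ± 0.28 (SE, adjusted p = 0.00674, quasi-binomial test). Without the siSFSWAP library in place 2 its adjusted p was 0.0522. Over all introns 10.4% passed (610 of 5845; 1.33% higher and 9.1% lower). As a share of reads without effective lengths, the differences were 0.0214 for the 1791 nt intron, -0.0558 for the 213 nt intron and -0.168 for the 1066 nt intron, against 0.177, -0.128 and -0.279 with them.

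The 113 nt exon lies inside the 1791 nt intron and shares with it the junction that skips both, so its skipping reads were equal to the spliced reads of the intron in 12 of 12 libraries and the measures are not independent. It did not choose the genes, but its siNT/siUPF1 and siNT libraries also stood apart, and its test uses those siNT libraries. Inclusion of this exon rose to 0.270, 0.225 and 0.424 in siSFSWAP libraries, against 0.0706, 0.108 and 0.104 in siNT libraries. The groups did not overlap, and the log2 odds ratio was 2.10 ± 0.51 (SE, adjusted p = 0.00144, quasi-binomial test). Without the siSFSWAP library in place 3 the adjusted p was 0.0594. It rested on 34, 18 and 52 inclusion reads in siSFSWAP libraries, against 7, 19 and 11 in siNT libraries. The 113 nt exon passed beside 12% of all exons (4044 of 33839), and 25.9% of all exons had groups that did not overlap.

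For NTMT1 the siSFSWAP and siNT libraries overlapped. The intron averaged 0.877 ± 0.109 in siSFSWAP and 0.820 ± 0.0417 in siNT cells (SD, n = 3 each), and the sign of its odds ratio turned without the siSFSWAP library in place 2. The 119 nt exon averaged 0.0794 ± 0.0683 in siSFSWAP and 0.0946 ± 0.0233 in siNT cells, and the siSFSWAP library in place 2 held 3 inclusion reads, beside 39 and 18 in the others.

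With UPF1 depleted in both arms, the 1791 nt intron was again higher after SFSWAP depletion. The siNT/siUPF1 libraries of this comparison are also among those on which the genes were chosen, so the same introns and exons are given without a test. The 1791 nt intron had 0.795, 0.756 and 0.804 in siSFSWAP/siUPF1 libraries, against 0.612, 0.414 and 0.619 in siNT/siUPF1 libraries. The groups did not overlap, and the log2 odds ratio was 1.63 ± 0.34 (SE, adjusted p = 0.00325, quasi-binomial test). Its spliced form had 30, 36 and 29 reads in siSFSWAP/siUPF1 libraries, against 55, 110 and 69 in siNT/siUPF1 libraries. It passed beside 3.57% of all introns (182 of 5105), and 18.1% of all introns had groups that did not overlap.

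The 1066 nt intron averaged 0.224 ± 0.0250 in siSFSWAP/siUPF1 and 0.247 ± 0.0165 in siNT/siUPF1 cells (SD, n = 3 each), and its libraries overlapped. The 213 nt intron averaged 0.755 ± 0.0215 in siSFSWAP/siUPF1 and 0.726 ± 0.0700 in siNT/siUPF1 cells, with overlap. The 113 nt exon had 0.255, 0.398 and 0.262 in siSFSWAP/siUPF1 libraries, against 0.203, 0.163 and 0.145 in siNT/siUPF1 libraries. The groups were separate, but the adjusted p was 0.0758 (quasi-binomial test, log2 odds ratio 1.21 ± 0.44, SE).

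The NTMT1 intron had 1, 0.925 and 0.842 in siSFSWAP/siUPF1 libraries, against 1, 1 and 1 in siNT/siUPF1 libraries. The siSFSWAP/siUPF1 library in place 1 also stood at 1, so the groups overlapped, and no library can lie above the siNT/siUPF1 values by which the gene was chosen. The 119 nt exon, which shares those spliced reads, had 0.0162, 0.0793 and 0.0844 in siSFSWAP/siUPF1 libraries, against 0, 0.0089 and 0 in siNT/siUPF1 libraries. These groups did not overlap. Over all exons 7.48% passed in this comparison (2544 of 34006), and 21.6% had groups that did not overlap.

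The calls for the 1791 nt intron and the 113 nt exon depended on how the spread was estimated. Each was kept when 30 reads per library were asked for, and when the dispersion had no lower limit. Each was lost with no filter on low counts, with limma on log2 odds at either pseudocount, and with each event's own dispersion. For the 1791 nt intron in siSFSWAP against siNT cells, the adjusted p under these 4 was 0.206, 0.192, 0.169 and 0.319. No direction turned in these settings.

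**Figure D4:**
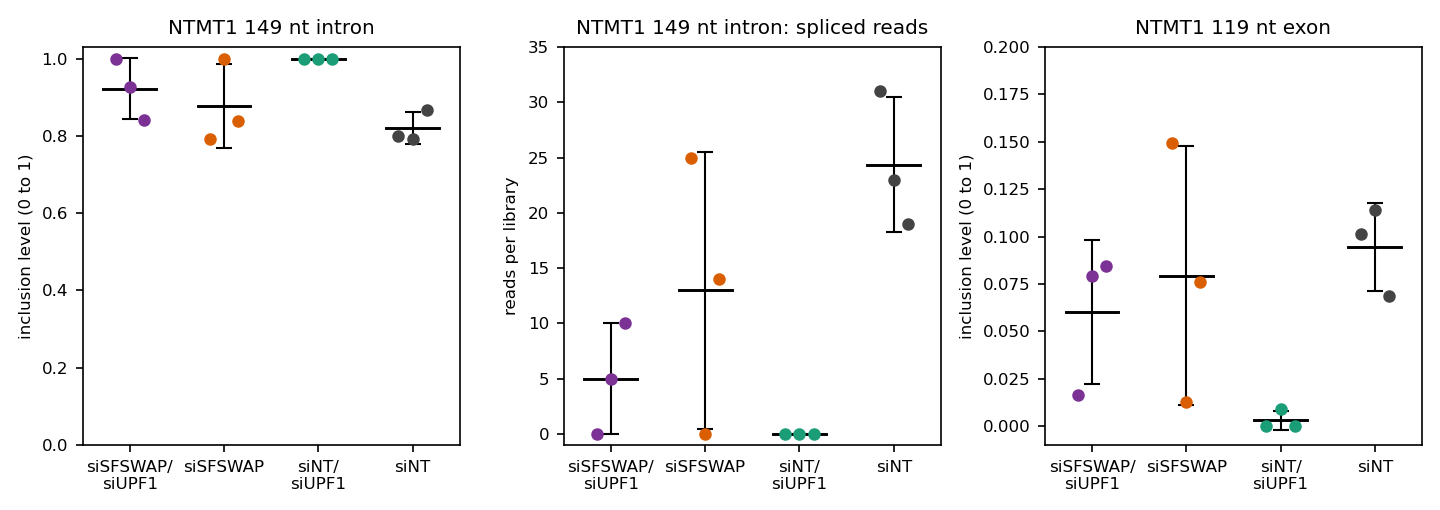
The inclusion level of the NTMT1 149 nt intron (left), its spliced reads in each library (middle) and the inclusion level of the 119 nt exon (right) are shown with a dot for each library and the mean and SD of 3 libraries in each group. The siNT/siUPF1 libraries held 0 spliced reads, whereas the siNT libraries held 19 to 31.

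Set side by side, the 4 group levels of the 1066 nt intron were 0.224 in siSFSWAP/siUPF1, 0.199 in siSFSWAP, 0.247 in siNT/siUPF1 and 0.478 in siNT cells. In order of level, siSFSWAP and siSFSWAP/siUPF1 cells were adjacent and separate by a narrow gap, siSFSWAP/siUPF1 and siNT/siUPF1 libraries overlapped, and siNT libraries stood above them all. The 1791 nt intron was ordered otherwise, with 0.548 in siNT/siUPF1 and 0.559 in siNT cells as overlapping neighbours at the low end, then 0.735 in siSFSWAP and 0.785 in siSFSWAP/siUPF1 cells, which overlapped as well. The NTMT1 intron ran from 0.820 in siNT through 0.877 in siSFSWAP and 0.922 in siSFSWAP/siUPF1 to 1 in siNT/siUPF1 cells, and neighbours in this order overlapped.

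**Figure D5:**
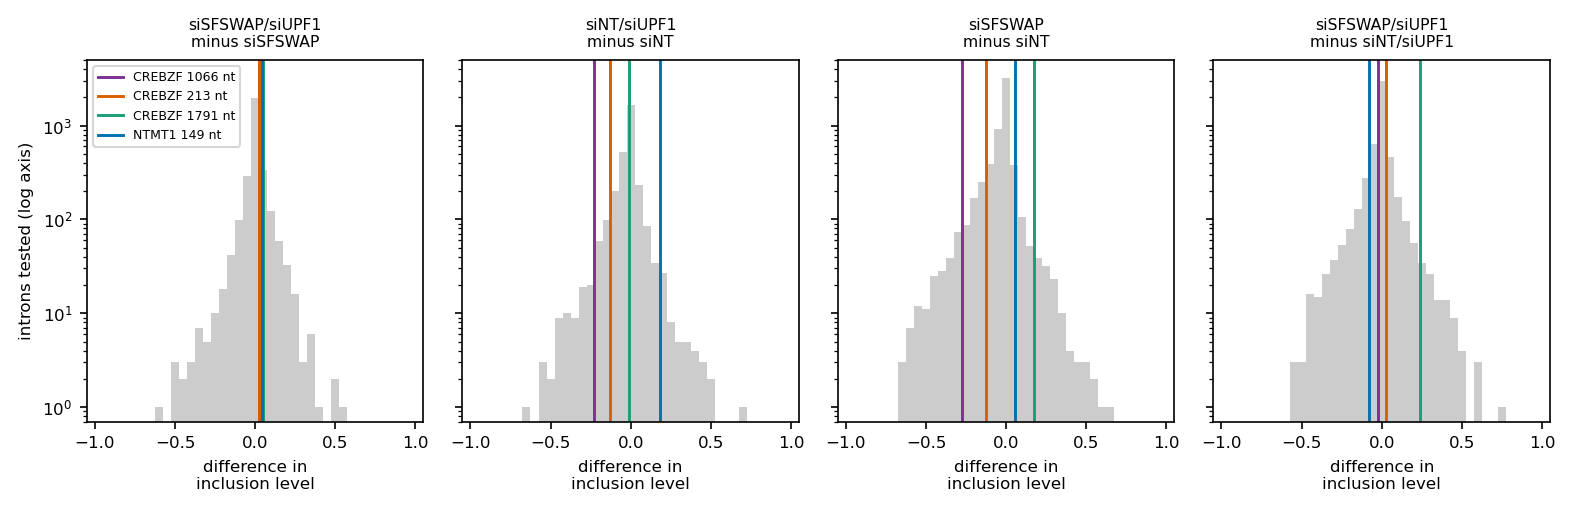
Grey bars count all introns tested by their difference in inclusion level (x axis, bins of equal width, log y axis) in each of the 4 comparisons, and coloured lines mark 3 CREBZF introns and the NTMT1 intron. The 1066 nt intron lies at -0.231 in siNT/siUPF1 minus siNT and at -0.279 in siSFSWAP minus siNT, comparisons that share the siNT libraries, and at 0.0252 in siSFSWAP/siUPF1 minus siSFSWAP.

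The remaining retained intron events of CREBZF gave little. The 1765 nt intron, which has the acceptor of the 1791 nt intron and a donor 26 nt further on, was nearly always kept (means of 0.948 in siSFSWAP/siUPF1, 0.984 in siSFSWAP, 0.948 in siNT/siUPF1 and 0.951 in siNT cells). The 3217 nt and 225 nt introns had mean levels of 0.982 or more in every group and too few spliced reads for a test. The 244 nt intron was listed only in the table without siUPF1, at 0.999 or 1. The 115 nt exon inside the 1066 nt intron averaged 0.0458 in siSFSWAP/siUPF1, 0.0578 in siSFSWAP, 0.0420 in siNT/siUPF1 and 0.0751 in siNT cells. The junction that skips it is the splice junction of the 1066 nt intron, and its siNT/siUPF1 and siNT libraries also stood apart. Its values against siNT or siNT/siUPF1 libraries are therefore given without a test. In siSFSWAP/siUPF1 against siSFSWAP cells it did not pass. Its shorter forms of 99 nt (0.0382 in siSFSWAP and 0.0528 in siNT cells) and 84 nt (0.0264 in siSFSWAP/siUPF1 and 0.0238 in siNT/siUPF1 cells) are skipped by the same junction and are given without a test. The other 9 CREBZF exons were listed only in the table without siUPF1 and could not be tested. Of these, 5 had mean levels of 0.923 or more in both groups and 4 rested on at most 8 reads a group.

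Of the other NTMT1 exons, the 152 nt exon upstream of exon 3 averaged 0.950 in siSFSWAP/siUPF1, 0.895 in siSFSWAP, 0.928 in siNT/siUPF1 and 0.852 in siNT cells. It starts with the same acceptor as exons of 206, 216, 224 and 332 nt that end at donors further on. The 216 nt exon averaged 0.986 in siSFSWAP/siUPF1, 0.972 in siSFSWAP, 0.961 in siNT/siUPF1 and 0.945 in siNT cells. The 224 nt exon averaged 0.945 in siSFSWAP and 0.904 in siNT cells, the 332 nt exon 0.928 in siSFSWAP and 0.877 in siNT cells, and the 206 nt exon 0.924 in siSFSWAP/siUPF1 and 0.844 in siNT/siUPF1 cells. None of these passed in a comparison that was tested. Of the remaining 19 NTMT1 events, 17 had mean levels of 0.971 or more in every group that listed them, and 2 rested on at most 27 reads a group.

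Among the other basic leucine zipper genes and their partners, on a list of 54, 7 genes had 11 introns that could be tested in siSFSWAP/siUPF1 against siSFSWAP cells, and 0 passed by the quasi-binomial test or by limma (1 had an unadjusted p under 0.05). Among 43 other protein methyltransferases, 8 genes had 11 introns and 0 passed by either test, with 0 at an unadjusted p under 0.05. The NTMT1 substrates on the list had 3 introns in 2 genes, of which 0 passed by either test, also with 0 at an unadjusted p under 0.05. Median differences of the lists were -0.00277, -0.00224 and -0.000429, beside 0.000226 over all introns. In siSFSWAP against siNT cells, 1 intron of the basic leucine zipper list rose and 2 fell, of 16 tested, and 2 of 20 fell for the methyltransferases, beside 10.4% of all introns. Of the NTMT1 substrates 0 of 8 introns passed, with 4 at an unadjusted p under 0.05. limma called 0 of all these, and 5 introns of the basic leucine zipper list and 4 of the methyltransferases had an unadjusted p under 0.05. Exons of the lists did pass in siSFSWAP against siNT cells, beside 12% of all exons. In the basic leucine zipper list 7 rose and 6 fell of 81, in the methyltransferases 13 rose and 0 fell of 101. Among the NTMT1 substrates 11 rose and 1 fell of 63. limma with pseudocount 0.5 called 6, 8 and 3. Several of these events overlap within a gene, as in RPL23A.

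The intron that rose belongs to XBP1, a transcription factor of the unfolded protein response. IRE1 removes a short intron from XBP1 mRNA outside the spliceosome. By its coordinates the intron that rose is that one, and it is named here after its values were seen. It averaged 0.947 ± 0.0343 in siSFSWAP and 0.742 ± 0.106 in siNT cells (SD, n = 3 each). The groups did not overlap (log2 odds ratio 2.78 ± 0.67, SE, adjusted p = 0.00124, quasi-binomial test). Both that fell belong to HCFC1, a chromatin-associated cell cycle regulator to which CREBZF is known to bind, and those of the methyltransferases to METTL13 and CARM1.

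The introns whose levels over the 12 libraries correlated best with the CREBZF 1066 nt intron lay in ACADVL (Pearson r = 0.950), UBXN6 (0.945), HSF1 (0.941), ACAD9 (0.927) and ARHGDIA (0.922), of 3420 introns compared. The ACADVL intron averaged 0.0518 in siSFSWAP/siUPF1, 0.0551 in siSFSWAP, 0.0473 in siNT/siUPF1 and 0.176 in siNT cells. A choice by correlation favours such an order, with siNT the highest. The UBXN6 intron averaged 0.0804 in siSFSWAP/siUPF1, 0.0604 in siSFSWAP, 0.0957 in siNT/siUPF1 and 0.377 in siNT cells. ACADVL encodes an enzyme of fatty acid oxidation, and HSF1 is the main transcription factor of the heat shock response. For the NTMT1 intron the highest correlation was with TMEM258 (r = 0.803), at a low depth of 13.3 reads per library, followed by PRKDC (0.787), ACOT9 (0.778), GAPDH (0.763) and PSMC6 (0.741). Unlike the NTMT1 intron, those after TMEM258 were nearly always removed. Their group means ran from 0.0202 to 0.0449 in PRKDC, 0.00636 to 0.0159 in ACOT9, 0.0212 to 0.0242 in GAPDH and 0.00508 to 0.0144 in PSMC6. These points share groups and libraries, and the values are a description.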

How the data were processed

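RNA was polyA selected, and single-end reads were trimmed with cutadapt 1.9.1 and aligned with STAR 2.7 to GRCh38.p8, according to the submitters' processing notes and the study's methods. For its decoy exon analysis of TG-treated cells, the study added putative decoy exons, located in known retained introns, to the RefSeq annotation on GRCh38.p8. Whether any event described here stems from those additions was not tested. The authors then ran rMATS on each pair of groups and deposited, for every skipped exon and retained intron event, the inclusion and skipping read counts of the 3 libraries of each group, joined in 1 cell, with effective lengths and inclusion levels as fractions. The counts include reads within the intron or exon body as well as junction reads. The columns of the authors' own comparisons (p-values, false discovery rates and level differences) were not used. The values in a cell carry no replicate number, so libraries are named by group and place, and the side of each file that holds siNT follows the study's definition of the level difference. No per-sample column was left unmapped (0).

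Inclusion levels were recomputed from the reads and effective lengths, and differed from the deposited ones by at most 5e-04. Retained intron events numbered 10576 in the files without siUPF1 and 9652 in those with it, and 5021 were in both (for skipped exons 115209, 110136 and 64303). For each event, inclusion and skipping reads entered a quasi-binomial regression on the group (two-sided F test), its dispersion moderated across events by limma 3.58.1 in R 4.3.3 (data.table, version 1.17.8) and not allowed below 1, and Benjamini-Hochberg adjustment over all events kept. Events needed a mean of 10 reads per library and 10 reads of each form over the libraries compared, and passed at an adjusted p of 0.05. Intervals are 95%. The limit given for a count of 0 covers counting error only. The code was tested on simulated data. Reads of each form were compared by exact permutation in Python 3.11.15 (pandas 2.3.3, NumPy 2.4.6, SciPy 1.17.1), and figures were drawn with Matplotlib 3.10.9. Library depth at events was 1812794 to 3030493 reads for retained introns.

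The genes, their related gene lists and the tests were chosen with earlier results of these data known. All events of the genes are accounted for, the first described intron of each being that with the lowest p in the contrast that chose them, and the introns most alike are the 5 of other genes with the highest Pearson r over the 12 libraries. Alternatives were a mean of 30 reads, no filter, limma on log2 odds with pseudocounts of 0.5 and 1, no lower limit on the dispersion, each event's own dispersion, leaving out each library, reads without effective lengths, and another denominator.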

Additional observations from a re-analysis of the deposited data

How the results depend on the processing

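Depth and the number of libraries limit these results: 3 libraries a group, few spliced reads in NTMT1, and calls that rest on a dispersion shared across events. Counts of introns that passed were, for siSFSWAP/siUPF1 minus siSFSWAP, 5 in the reported fit, 3 with a mean of 30 reads and 0 with no filter, limma at pseudocounts 0.5 and 1, or own dispersion; for siNT/siUPF1 minus siNT 2, against 0 with no filter or own dispersion and 1 with limma at either pseudocount. For siSFSWAP minus siNT they were 610, against 0 under all 4 of these settings, and for siSFSWAP/siUPF1 minus siNT/siUPF1 182, against 0 with no filter or own dispersion and 1 with limma at either pseudocount. Counts of exons were 21, 332, 4044 and 2544 in the same order of comparisons. No filter and own dispersion gave 0 in each, and limma gave 0, 0, 1239 and 17 with pseudocount 0.5 and 0, 0, 1611 and 276 with pseudocount 1. Without one library at a time, intron counts ran from 1 to 11, 2 to 15, 383 to 820 and 84 to 344, and exon counts from 8 to 38, 126 to 615, 2395 to 3813 and 1355 to 3043. The cause was not tested.

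Of 405 alternative values for single events of the genes, 355 kept direction and side of the threshold, 36 moved above it, 0 moved below it and 14 changed sign, none of these 14 a call. The 355 and the 36 include values of events given above without a test, and for those events nothing is read from either number. In siSFSWAP/siUPF1 minus siSFSWAP, whose libraries had no part in the choice, no event passed. There, 58 of 58 intron values and 54 of 60 exon values kept direction and side. As log2 odds ratios without 1 library at a time, the events that changed sign ran, for siSFSWAP/siUPF1 minus siSFSWAP, from -0.94 to 0.53 (NTMT1 119 nt exon), -0.41 to 0.47 (CREBZF 113 nt exon) and -0.83 to 0.082 (115 nt exon). For siSFSWAP minus siNT they ran from -0.10 to 1.09 (NTMT1 149 nt intron) and -1.16 to 0.32 (119 nt exon), in both turned by the siSFSWAP library in place 2. For siSFSWAP/siUPF1 minus siNT/siUPF1 they ran from -0.049 to 0.48 (213 nt intron), -0.59 to 0.73 (1765 nt intron), -0.41 to 0.51 (115 nt exon) and -0.28 to 0.74 (84 nt exon). Differences in reads per 1000000 for siSFSWAP/siUPF1 minus siSFSWAP without 1 library ran from -0.14 to 0.37 for inclusion of the 113 nt exon, from -7.21 to 3.55 for the 149 nt intron, and from -0.45 to 0.011 for the 119 nt exon.

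No paired analysis was possible because the columns carry no replicate numbers. The edgeR alternative was not run.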
